A study of Homo sapiens with 17 samples.

Results

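In a head and neck cancer line, 76 genes were low in cells labelled as an NSD1 knockout and stayed at or under 1/2 of the parental level when those cells received an EZH2 inhibitor. They were taken from 34496 gene rows by a rule on levels in counts per 1e6 counted reads (CPM), averaged over the 2 libraries of a group. A gene without a dot in its symbol had to have at least 3 CPM in Cal27 with DMSO, at most 1/3 of that level in the labelled knockout with DMSO, and at most 1/2 of it in the labelled knockout with EPZ-6438. Of 10975 genes at or above the level limit, 191 were lost by this measure, and the 76 are 39.8% of them. The other 115 stood above 1/2 of the Cal27 level with EPZ-6438. All 76 passed the low-count filter of the fit, and 74 are protein-coding; ZNF204P and UQCRFS1P1 are pseudogenes.

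Cal27 is a line of tongue squamous cell carcinoma. RNA was sequenced from the labelled NSD1 knockout of Cal27 with EPZ-6438, the same labelled knockout with DMSO, and Cal27 with DMSO, 2 libraries each. A further 4 untreated libraries came from the labelled knockout, Cal27, SKN3 and BICR78, 1 of each; SKN3 and BICR78 are likewise lines of head and neck cancer. The labels name a single knockout line, so its clone and NSD1 cannot be told apart, and no library of Cal27 with EPZ-6438 was analysed here. They give neither dose nor duration of treatment, and do not say whether replicates came from separate cultures, so the p-values reflect the variation among these libraries alone, which could be technical.

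NSD1 is a methyltransferase that acts on lysine 36 of histone H3. EZH2 is the catalytic subunit of Polycomb repressive complex PRC2, which methylates lysine 27 of the same histone and holds genes silent, and lysine 36 methylation hinders PRC2 on the same tail. EPZ-6438, or tazemetostat, inhibits EZH2. Stratified squamous epithelium, the tissue from which Cal27 derives, is built on keratin filaments, desmosomes, secreted proteases and, towards its surface, cornification proteins.

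The 6 libraries with DMSO or EPZ-6438 each held between 11.75 and 15.51 times 1e6 counts, and the untreated 4 between 17.59 and 21.74 times 1e6. NSD1 mRNA stood at 162 and 151 CPM in the labelled knockout with EPZ-6438, 165 and 164 CPM in the labelled knockout with DMSO, and 110 and 111 CPM in Cal27 with DMSO. It was therefore higher, not lower, and gene counts do not check the label. All 9 markers of oral squamous epithelium were detected. Their summed level was 2602 to 2606 CPM with EPZ-6438, 4148 to 4264 CPM in the labelled knockout with DMSO and 7504 to 7580 CPM in Cal27. The sum includes KRT14, a member, so the rule set part of this order. KRT14 averaged 116, 192 and 1282 CPM in these groups, and KRT5 averaged 879, 1940 and 3896 CPM. The 8 immune markers summed to 231 to 236, 177 to 181 and 79.4 to 79.8 CPM in the same order of groups. Of these, 5 were at most at 1 CPM in all 6 libraries, with MS4A1 at 0, so few genes carry the sum. The 6 markers of simple epithelium summed to 913 to 930, 886 to 916 and 668 to 690 CPM, and the 5 endothelial ones to 26.4 to 29.1, 20.7 to 23.0 and 16.9 to 17.5 CPM. The 8 fibroblast markers summed to 21.5 to 25.6 CPM with EPZ-6438, 7.498 to 10.04 CPM in the labelled knockout with DMSO and 18.5 to 20.0 CPM in Cal27, and 4 of them were at most at 1 CPM. The part of these shifts in the results was not tested. In bulk RNA, fewer cells of a type and less RNA per cell cannot be told apart.

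Promoter sequences were available for part of the members. The RefSeq table of assembly GRCh38.p14, which gives 250 bases before to 50 after each start, matched 48 of the 76 by symbol, or 63.2%. That is under 80%, so a comparison of all members with other genes is void. The 3 promoters here belong to members described below and were picked for their different CG content, with each CG in capitals, 5′ to 3′ on the gene's strand. NUP210 lies at chr3:13420273-13420572 on the minus strand. PKP1 lies at chr1:201283256-201283555 and SPRR1B at chr1:153030953-153031252, both on the plus strand.
NUP210: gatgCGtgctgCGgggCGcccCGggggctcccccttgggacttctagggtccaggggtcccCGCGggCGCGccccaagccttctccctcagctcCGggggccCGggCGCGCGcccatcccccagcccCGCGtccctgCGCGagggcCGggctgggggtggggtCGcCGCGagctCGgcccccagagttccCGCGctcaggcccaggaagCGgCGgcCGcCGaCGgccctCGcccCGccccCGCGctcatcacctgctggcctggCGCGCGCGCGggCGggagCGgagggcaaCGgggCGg
PKP1: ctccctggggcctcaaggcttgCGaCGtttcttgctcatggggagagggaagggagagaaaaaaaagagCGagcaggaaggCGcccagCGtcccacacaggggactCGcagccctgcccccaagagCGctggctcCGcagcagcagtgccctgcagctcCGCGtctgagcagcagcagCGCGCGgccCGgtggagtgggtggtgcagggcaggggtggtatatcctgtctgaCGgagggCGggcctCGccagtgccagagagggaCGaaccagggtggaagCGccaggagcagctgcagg
SPRR1B: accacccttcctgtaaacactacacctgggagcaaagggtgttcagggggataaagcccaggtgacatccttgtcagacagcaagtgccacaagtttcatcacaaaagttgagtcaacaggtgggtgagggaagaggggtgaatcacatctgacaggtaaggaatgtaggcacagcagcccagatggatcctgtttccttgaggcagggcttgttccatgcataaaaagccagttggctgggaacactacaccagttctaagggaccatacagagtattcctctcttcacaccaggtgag
The NUP210 window held 42 CG, a number reached by 5.70% of 27305 promoters of the same length. The PKP1 window held 19, against a median of 14, and the SPRR1B window held none, as did 4.16% of all promoters. An AP-1 site, searched as TGACTCA on both strands, began at position -141 in SPRR1B and is present in 4.92% of promoters. Neither this site nor the TATA box TATAAA or the E-box CACGTG was in the other 2 windows, and SPRR1B also lacked the last 2 of these. TATAAA is in 12% and CACGTG in 7.43% of promoters.

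The values that chose the members are a description. With EPZ-6438 they stood at 1.32% to 49.8% of the Cal27 level, with a median of 27.7%. In the labelled knockout with DMSO they stood at 0% to 33.3%, with a median of 14.7%. Under 1 CPM were 16 members with EPZ-6438 and 36 with DMSO. In Cal27 their means ran from 3.01 to 1282 CPM with a median of 7.42 CPM, and 6 of them reached 100 CPM. All 76 were called lower in edgeR at an adjusted p below 0.05 in both comparisons with Cal27, where 25.9% of all 13241 tested genes were lower with EPZ-6438 and 19.5% with DMSO (26.1% and 16.4% were higher). The rule used both comparisons, so these counts carry no weight. The median log2 difference from Cal27 was -1.91 with EPZ-6438 and -2.80 with DMSO, beside 0.0039 and -0.0061 over all tested genes.

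**Figure D1:**
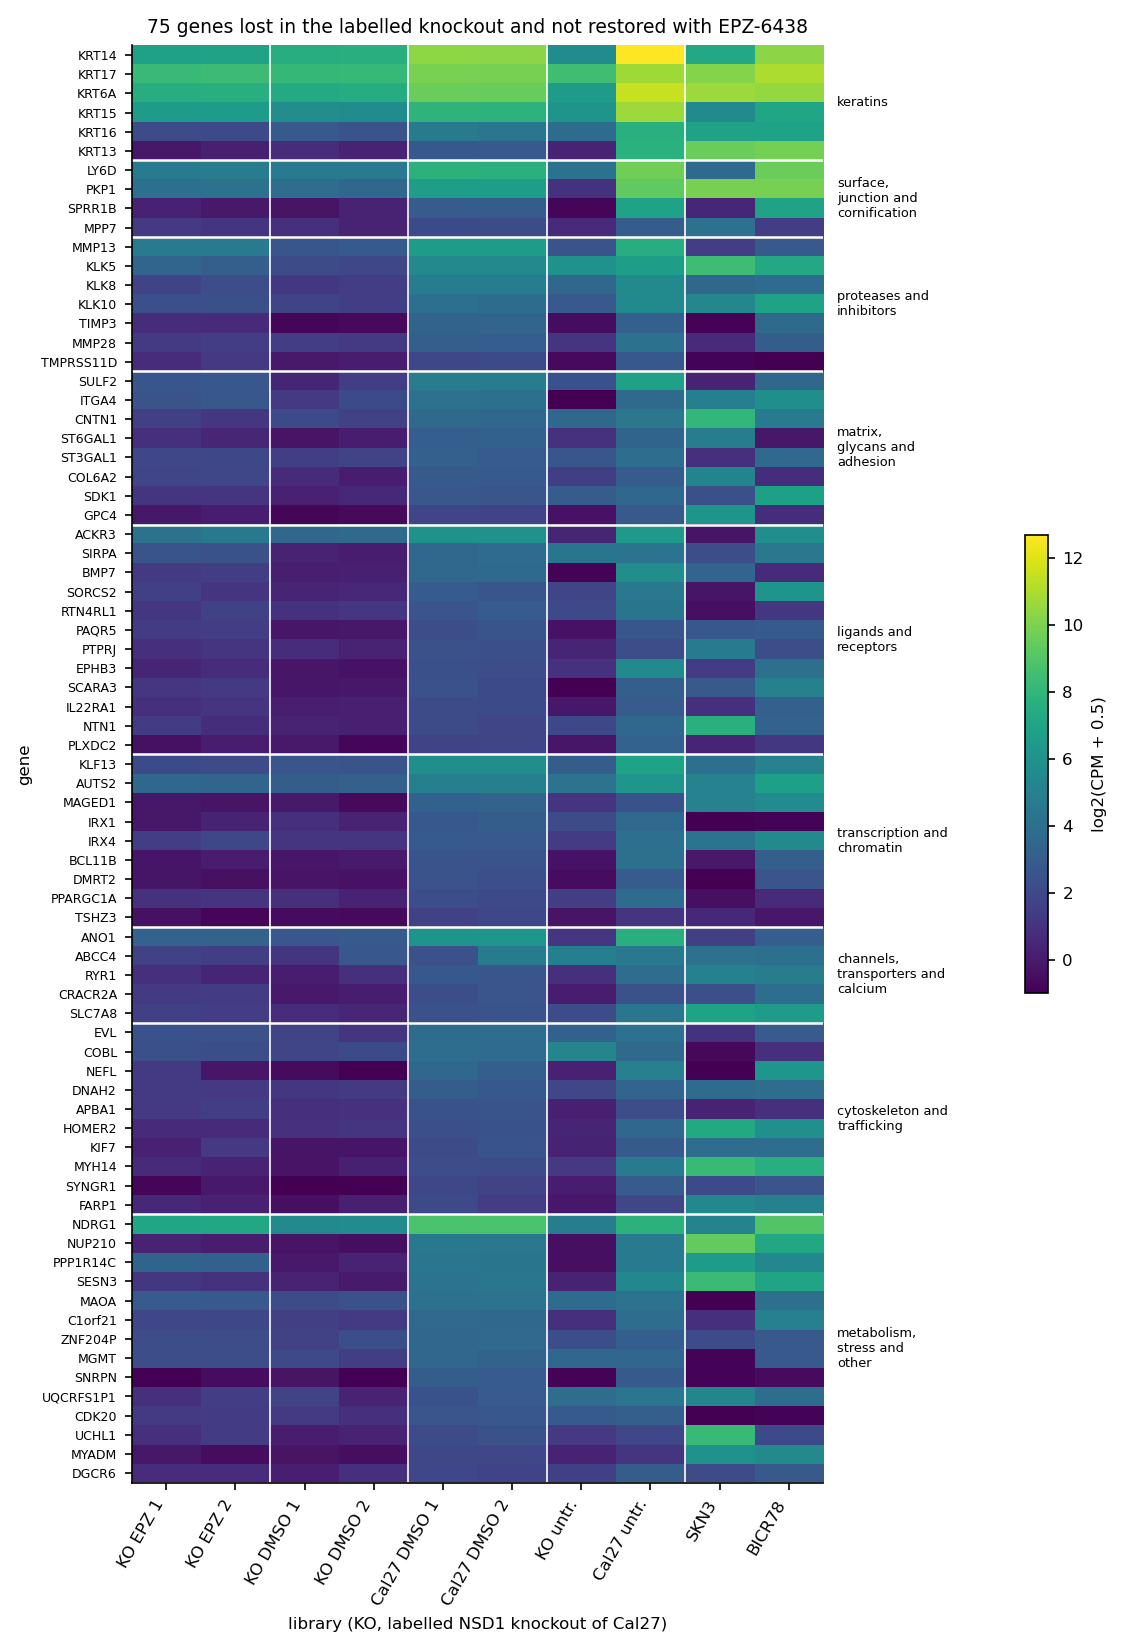
Level of 75 of the 76 genes as log2(CPM + 0.5) in each of 10 libraries, grouped by role; KO is the labelled NSD1 knockout, EPZ is EPZ-6438 and untr. is untreated. The rule chose the genes on the first 6 columns, and most are also darker in the untreated labelled knockout than in untreated Cal27.

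The members near each limit show how sharp the choice was. FARP1, GPC4 and PLXDC2 entered with 3.01 to 3.05 CPM in Cal27, while PLCE1, KLK7 and ARSD missed the level limit with 2.98, 2.83 and 2.80 CPM. ST3GAL1, DGCR6 and HOMER2 entered with 31.7% to 33.3% of the Cal27 level in the labelled knockout with DMSO, while IFT27, LTBP1 and TMEM52B missed with 34.3% to 36.7%. With EPZ-6438, PPP1R14C, SLC7A8 and NTN1 entered with 47.3% to 49.8%, while FOXE1, ANG and SASH1 missed with 50.2% to 51.2%.

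Keratins gave 4 of the 6 most abundant members. KRT14, the basal-layer partner of KRT5, stood at 113 and 118 CPM with EPZ-6438, 187 and 196 CPM in the labelled knockout with DMSO, and 1291 and 1274 CPM in Cal27. The 3 groups did not overlap, and the treated libraries were the lowest. KRT16, a keratin of activated epithelium, had the same order, with 3.83 and 3.48 CPM, 6.46 and 5.17 CPM, and 23.9 and 20.3 CPM. KRT13, the suprabasal keratin of oral mucosa, stood at 0.426 and 0.645 CPM with EPZ-6438, 1.17 and 0.801 CPM with DMSO and 6.27 and 6.5 CPM in Cal27. KRT15, another basal keratin, went the other way with the inhibitor. It stood at 92.1 and 91.6 CPM with EPZ-6438, 52.1 and 49.1 CPM with DMSO and 241 and 233 CPM in Cal27. KRT17 and KRT6A, also keratins of activated epithelium, were called slightly higher with the inhibitor (log2 0.20 ± 0.03 and 0.18 ± 0.04, SE). Both estimates lie below the log2 fold of 0.5 against which calls were also tested. KRT17 stood at 313 and 328 CPM with EPZ-6438, 271 and 288 CPM with DMSO and 962 and 938 CPM in Cal27. KRT6A stood at 186 and 197, 163 and 176, and 743 and 736 CPM in these groups. Several of these keratins have near-identical copies, so the split of their reads between copies is uncertain.

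Of the 32 keratins listed, 18 were tested, and 11 were lower and 4 higher in the labelled knockout with DMSO than in Cal27. The rule fixed 6 of the 11, its members, as lower. Members count among the lower genes of the lists below too. Over all tested genes 19.5% were lower and 16.4% higher. KRT5, which is no member, stood at 870 and 889 CPM with EPZ-6438, 1902 and 1977 CPM with DMSO and 3933 and 3858 CPM in Cal27. It missed the rule on the labelled knockout with DMSO and was lower with the inhibitor, as KRT14 was.

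The members included 4 genes of the cell surface, junctions and cornification. LY6D, a surface protein of stratified epithelia, stood at 25.5 and 27.3 CPM with EPZ-6438, 25.1 and 25.3 CPM in the labelled knockout with DMSO, and 218 and 205 CPM in Cal27. PKP1, the desmosomal plakophilin, stood at 15.2 and 17.5, 14.1 and 11.5, and 99.2 and 99.1 CPM. It was the 1 gene of these 4 called higher with EPZ-6438 than with DMSO (log2 0.37 ± 0.11, SE), a call lost without labelled knockout DMSO replicate 2 (0.22) or EPZ-6438 replicate 2 (0.26). SPRR1B, a precursor of the cornified envelope, stood at 0.681 and 0.451, 0.311 and 0.801, and 7.41 and 7.65 CPM, and its libraries with EPZ-6438 and with DMSO overlapped. MPP7, a junctional scaffold, was the fourth of this group. Of 16 tested cadherin and desmosome genes 11 were lower and 2 higher in the labelled knockout with DMSO. Of 16 cornified envelope and differentiation genes 10 were lower and 1 higher, beside 19.5% and 16.4% of all tested genes. The lower genes of these lists include 1 and 3 members, which the rule fixed as lower.

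**Figure D2:**
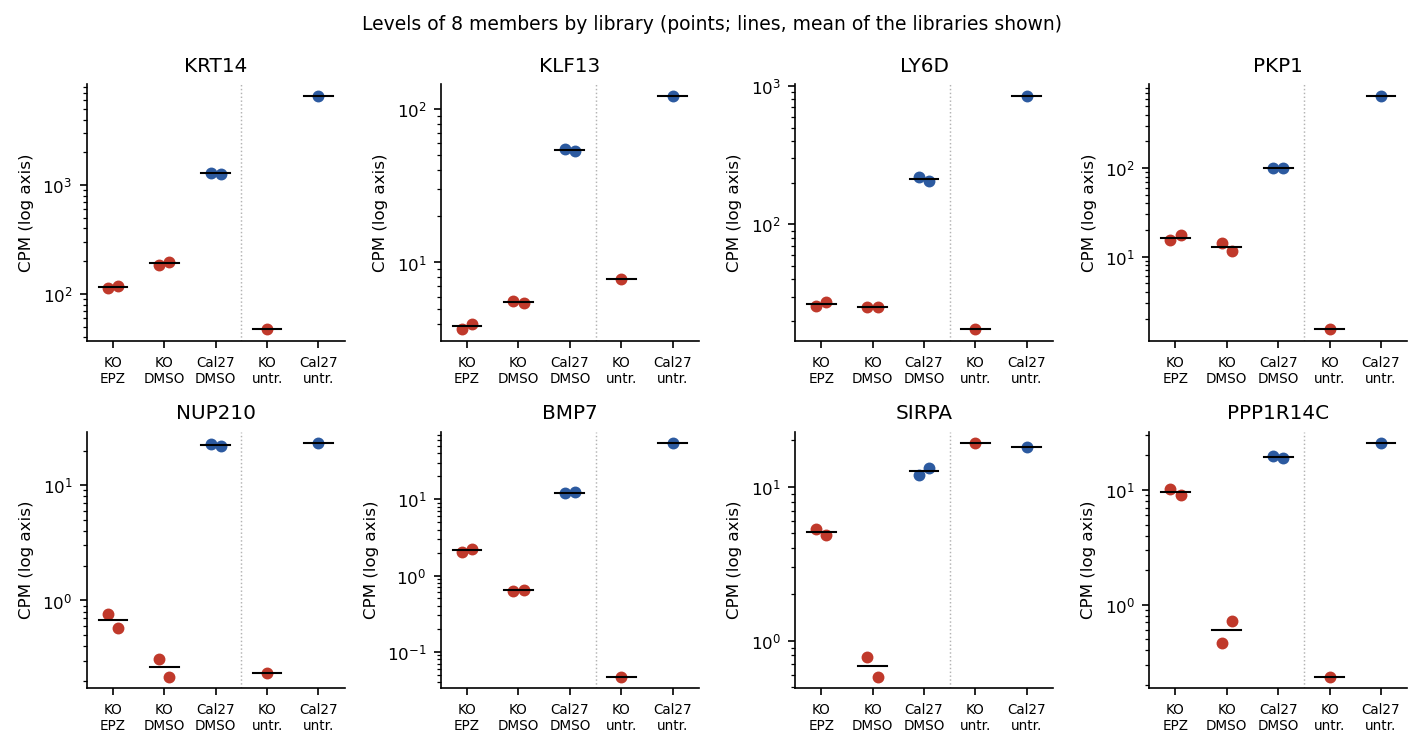
Level in CPM on a log axis of 8 members in each library, with the mean as a line; KO is the labelled knockout, EPZ is EPZ-6438, and untreated single libraries stand right of the dotted line. KRT14 and KLF13 are lowest with EPZ-6438 among the first 3 groups, PPP1R14C is highest with EPZ-6438 among the knockout libraries, and SIRPA is as high in the untreated labelled knockout as in untreated Cal27.

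The members included 7 proteases and inhibitors. MMP13, a collagenase, stood at 24.0 and 23.1 CPM with EPZ-6438, 5.91 and 6.84 CPM in the labelled knockout with DMSO, and 95.2 and 93.0 CPM in Cal27. TIMP3, the matrix-bound inhibitor of such enzymes, stood at 1.19 and 1.10 CPM, 0.0778 and 0.146 CPM, and 9.62 and 10.7 CPM. Its 3 reads in the 2 knockout DMSO libraries against 283 in Cal27 give an 89.9-fold lower level with a counting interval of 30.5 to 439. The treated libraries lay between the other groups in both genes. KLK5, KLK8 and KLK10, secreted members of the kallikrein family of serine proteases, had treated levels of 8.19 to 10.4, 2.98 to 4.13 and 4.58 to 4.60 CPM. In the labelled knockout with DMSO they stood at 3.28 to 3.97, 1.87 to 2.33 and 2.40 to 2.96 CPM, and in Cal27 at 42.2 to 42.7, 25.9 to 26.9 and 13.6 to 15.7 CPM. The remaining 2 were MMP28, or epilysin, and the membrane protease TMPRSS11D. MMP28 did not pass the test between EPZ-6438 and DMSO (log2 -0.02 ± 0.26, SE). Over the 25 tested genes of matrix metalloproteinases, ADAMTS enzymes and inhibitors, 9 were lower and 9 higher in the labelled knockout with DMSO. The shares over all tested genes were 19.5% lower and 16.4% higher.

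Of 8 genes of matrix, glycans and adhesion, SULF2 had the highest level in Cal27. It removes sulfate groups from heparan sulfate outside the cell. It stood at 5.79 and 6.13 CPM with EPZ-6438, 0.856 and 2.33 CPM in the labelled knockout with DMSO, and 27.3 and 27 CPM in Cal27. ITGA4, an integrin chain, stood at 5.11 and 6, 1.95 and 3.64, and 16.7 and 15.8 CPM. CNTN1, a contactin of neural cell adhesion, stood at 2.55 and 1.74, 3.74 and 2.69, and 13 and 10.8 CPM. Both of its treated libraries lay below both knockout DMSO libraries. GPC4, a heparan sulfate proteoglycan, had 3 reads in the knockout DMSO libraries against 84 in Cal27, which is 26.7-fold lower (counting interval 8.83 to 132). The other 4 were the sialyltransferases ST6GAL1 and ST3GAL1, the collagen chain COL6A2 and the adhesion molecule SDK1.

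Among 12 ligands and receptors, levels in Cal27 were mostly low. ACKR3, a scavenging receptor for CXCL12, was the highest, with 17.4 and 23.0 CPM with EPZ-6438, 11 and 12.6 CPM in the labelled knockout with DMSO, and 62.0 and 60.7 CPM in Cal27. BMP7, a growth factor of the TGF-beta family, stood at 2.04 and 2.26, 0.623 and 0.655, and 12 and 12.4 CPM. SIRPA, the receptor for CD47, stood at 5.28 and 4.84, 0.778 and 0.582, and 12 and 13.2 CPM. In both BMP7 and SIRPA the 3 groups stood apart, with the treated libraries between the others. EPHB3, an ephrin receptor, and NTN1, a guidance ligand, stood at 0.851 to 1.16 and 1.23 to 2.13 CPM with EPZ-6438. With DMSO they stood at 0.291 to 0.389 and 0.655 to 0.778 CPM in the labelled knockout and at 4.19 to 4.56 and 3.18 to 3.92 CPM in Cal27. The others were the cytokine receptor chain IL22RA1, the membrane progestin receptor PAQR5, the phosphatase PTPRJ, and SORCS2, RTN4RL1, SCARA3 and PLXDC2. Of the 36 tested genes of the BMP, activin and TGF-beta pathway, 9 were lower and 10 higher in the labelled knockout with DMSO, and BMP7 was its only member here. Of 50 tested axon guidance genes 11 were lower and 19 higher. Over all tested genes 19.5% were lower and 16.4% higher, and nothing is read from the counts of these lists.

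The 9 transcription and chromatin genes had a median of 8.44% of the Cal27 level with EPZ-6438 and of 10.2% in the labelled knockout with DMSO. KLF13, a Krüppel-like factor, stood at 3.66 and 4 CPM with EPZ-6438, 5.60 and 5.46 CPM in the labelled knockout with DMSO, and 55.1 and 53.4 CPM in Cal27. MAGED1, a MAGE family protein without testis restriction, stood at 0.426 and 0.322, 0.467 and 0.146, and 9.12 and 9.60 CPM. The homeobox gene IRX1 stood at 0.426 and 0.774, 1.32 and 0.801, and 6.41 and 7.80 CPM. All 3 stayed at or under the knockout level, or within its spread, with the inhibitor. The zinc finger factor BCL11B stood at 0.341 and 0.580 CPM with EPZ-6438, 0.389 and 0.510 CPM with DMSO and 5.41 and 5.34 CPM in Cal27. DMRT2, of the doublesex family, stood at 0.341 and 0.258, 0.311 and 0.291, and 5.06 and 4.62 CPM, and its knockout libraries overlapped too. AUTS2, a component of a variant Polycomb complex, and the homeobox gene IRX4 were called higher with EPZ-6438, and the coactivator PPARGC1A was not. AUTS2 stood at 11.7 and 10.3 CPM with EPZ-6438, 7.70 and 8.66 CPM with DMSO and 29.5 and 29.0 CPM in Cal27. IRX4 reached 42.3% and PPARGC1A 38.3% of the Cal27 level with EPZ-6438, against 24.4% and 27.2% with DMSO. The AUTS2 and IRX4 calls were lost with DESeq2 and without labelled knockout DMSO replicate 1 (log2 0.33 and 0.79). AUTS2 also lost its call without EPZ-6438 replicate 1 (0.33), and IRX4 without labelled knockout DMSO replicate 2 (0.83) or EPZ-6438 replicate 2 (0.53). TSHZ3 was the last of this group. IRX2, which is no member, stood at 36.6 and 35.5 CPM with EPZ-6438, 38.5 and 36.3 CPM with DMSO and 41.5 and 44.4 CPM in Cal27. No member was among the 39 squamous and epithelial transcription factors or the 62 interferon-stimulated genes of the lists that are in the table. Of these, 26 and 61 reached 3 CPM in Cal27 with DMSO. Members are only 0.692% of all genes at that level, so nothing is read from their absence.

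Of 5 channel and transport genes, ANO1, the calcium-activated chloride channel, was the highest. It stood at 9.37 and 9.74 CPM with EPZ-6438, 6.15 and 6.70 CPM in the labelled knockout with DMSO, and 68.2 and 69.0 CPM in Cal27. SLC7A8, a carrier of neutral amino acids, stood at 2.47 and 2.32, 1.17 and 0.874, and 4.84 and 5.05 CPM. ABCC4, an organic anion exporter, stood at 2.72 and 2.45, 1.56 and 6.04, and 4.84 and 24.7 CPM. The ABCC4 replicates disagreed with each other in both DMSO groups, and without Cal27 replicate 2 the rule no longer takes this gene. The other 2 were the calcium release channel RYR1 and the calcium sensor CRACR2A.

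The 10 genes of the cytoskeleton and trafficking included NEFL, the light neurofilament chain. It stood at 2.04 and 0.387 CPM with EPZ-6438, 0.156 and 0 CPM in the labelled knockout with DMSO, and 11.3 and 8.30 CPM in Cal27. SYNGR1, a synaptic vesicle protein, had no read in either knockout DMSO library. Against the limit of 3 counts over the group, its level there was at least 28.3-fold lower than in Cal27, where it had 89 reads. COBL, an actin nucleator, stood at 4.51 and 4.45, 3.19 and 3.64, and 14.1 and 13.3 CPM. The other 7 were EVL, the dynein chain DNAH2, APBA1, the scaffold HOMER2, the kinesin KIF7, the myosin MYH14 and FARP1.

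The remaining 15 members have mixed roles. NDRG1, a stress-induced gene, was by far the most abundant of them, with 135 and 141 CPM with EPZ-6438, 46.1 and 48.5 CPM in the labelled knockout with DMSO, and 453 and 441 CPM in Cal27. NUP210, a membrane protein of the nuclear pore with the CG-rich promoter printed above, stood at 0.766 and 0.580, 0.311 and 0.218, and 23.0 and 22 CPM. SESN3, a sestrin of nutrient sensing, stood at 1.79 and 1.42, 0.778 and 0.510, and 17.9 and 20.1 CPM. NUP210 and SESN3 were thus above their knockout DMSO libraries with the inhibitor and still under 10% of the Cal27 level. PPP1R14C, an inhibitor of protein phosphatase 1, came closest to the limit, with 10.3 and 9.09 CPM with EPZ-6438, 0.467 and 0.728 CPM with DMSO and 19.8 and 19.1 CPM in Cal27. SNRPN, a splicing protein gene of an imprinted region that is expressed from the paternal copy, stood at 0 and 0.193, 0.311 and 0, and 7.62 and 7 CPM. Its 3 reads with EPZ-6438 against 204 in Cal27 give a 66.5-fold lower level (counting interval 22.4 to 325). The DNA repair gene MGMT stood at 4.17 and 4.13, 3.5 and 2.40, and 10.9 and 9.89 CPM. The others included MAOA, C1orf21, ZNF204P, UQCRFS1P1, CDK20, UCHL1, MYADM and DGCR6.

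Across the whole set, EPZ-6438 set against DMSO in the labelled knockout gave 41 members called higher, 3 called lower and 32 not called, where 25.6% of all tested genes were higher and 23.9% lower. Both treated libraries lay above both DMSO libraries in 53 members and below them in 7, and the libraries overlapped in 16. The same shares over all tested genes were not counted, so these have nothing to be set against. The rule capped one of these groups and held down the other, so nothing is read from the counts. The median log2 difference was 0.74, beside 0.0029 over all tested genes. Measured as the share of the gap to Cal27 that the treated libraries had closed, the median was 11.2% and the highest 48.2%, and 12 members were above 25%.

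By role, genes called higher with EPZ-6438 were 6 of 7 proteases and inhibitors, 9 of 12 ligands and receptors, and 6 of 8 matrix, glycan and adhesion genes. Called higher were also 3 of 5 channel and transport genes, 4 of 10 cytoskeleton and trafficking genes, 7 of the 15 of mixed roles, 2 of 9 transcription and chromatin genes and 1 of 4 surface, junction and cornification genes. Of 6 keratins 3 were called higher and 2 lower. Over all members 53.9% were called higher, and over all tested genes 25.6%. The role groups are small and were named after the values were seen, and differences between them were not tested. The 3 members called lower with EPZ-6438 were KRT14 (log2 -0.73 ± 0.04, SE), KRT16 (-0.67 ± 0.19) and KLF13 (-0.52 ± 0.16). The KRT16 and KLF13 calls were lost without labelled knockout DMSO replicate 1 (log2 -0.51 and -0.50). KRT16 also lost its call without EPZ-6438 replicate 2 (-0.60), KLF13 without EPZ-6438 replicate 1 (-0.47), and both against a log2 fold of 0.5, while KRT14 kept its call in each of these settings. Called and at least 2-fold higher were 27 members. PPP1R14C had a log2 difference of 3.98 ± 0.24, TIMP3 of 3.23 ± 0.56, SIRPA of 2.88 ± 0.27 and MMP13 of 1.88 ± 0.11. LY6D (0.07 ± 0.08) and SPRR1B (-0.03 ± 0.52) were not called, and the wide error of SPRR1B leaves room for a change in either direction. NUP210 was not called either, although its estimate of 1.30 ± 0.49 was above that of most members.

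**Figure D3:**
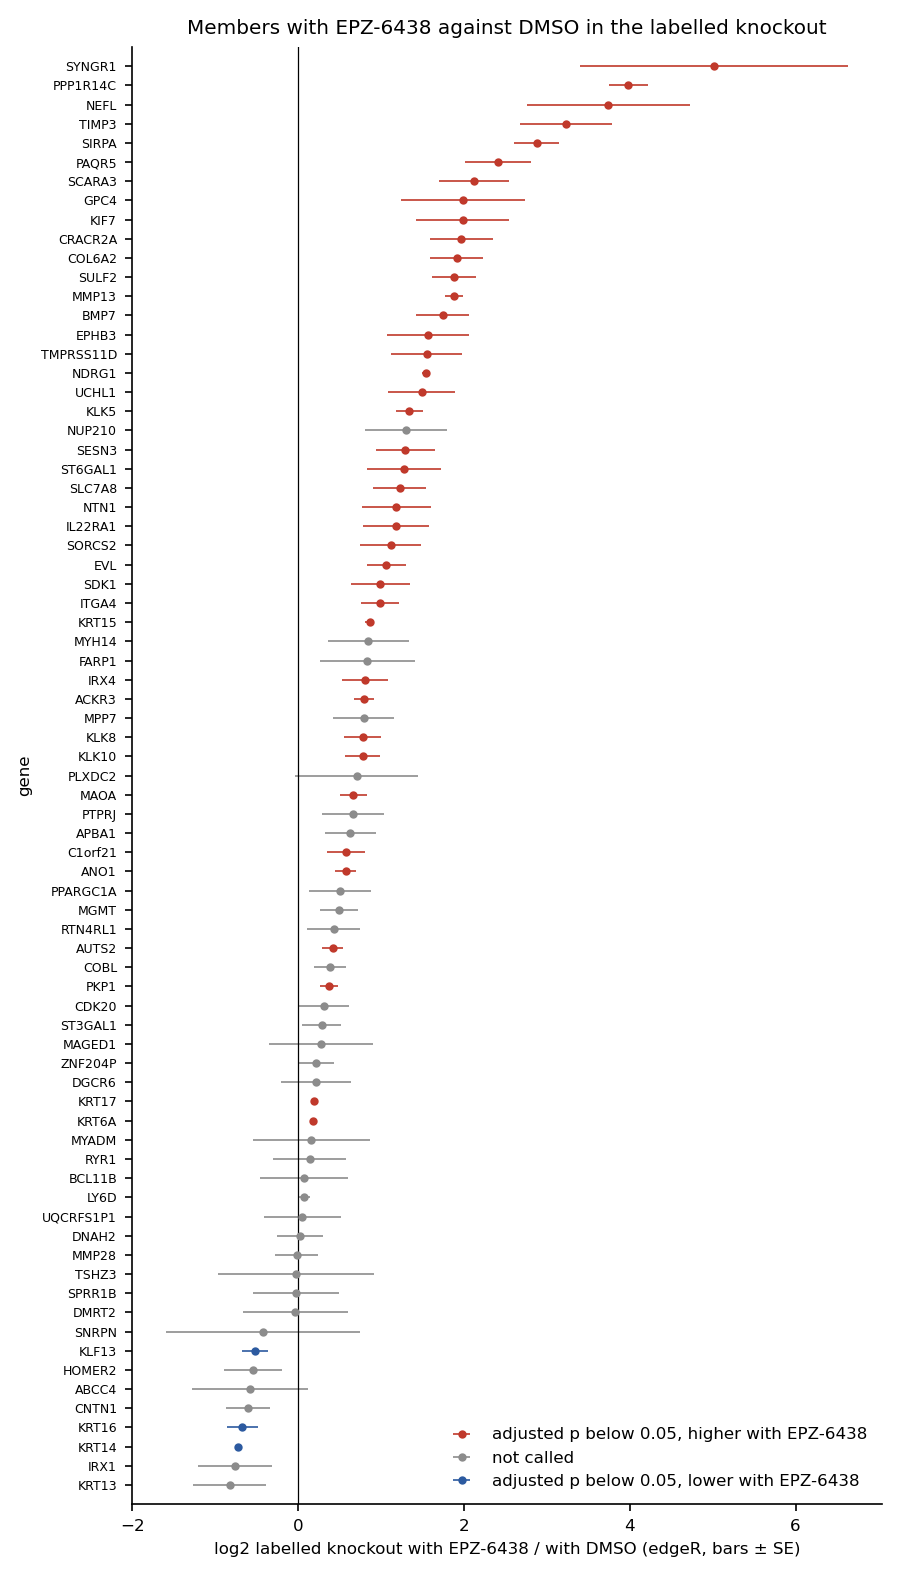
Log2 difference of the labelled knockout with EPZ-6438 over the same cells with DMSO for 75 of the 76 genes (edgeR, 2 libraries each, bars ± SE). Of all 76, 41 were called higher, 32 not called, and KRT14, KRT16 and KLF13 called lower.

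The untreated libraries were not used by the rule and measured the labelled knockout and Cal27 once more, with 1 library each and no test. After TMM scaling and with a prior count of 2, 64 of the 76 (84.2%) were more than 2-fold lower in the labelled knockout, where 8.72% of all tested genes were. The median log2 difference was -3.09 for the members and -0.01 over all tested genes. Past 3-fold lower were 61 members, 9 lay between 2-fold lower and no difference, and 3 were above 0. Among the 115 lost genes that stood above 1/2 of Cal27 with EPZ-6438, 87 (75.7%) were more than 2-fold lower and the median was -2.33. The difference between the sets was not tested.

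Squamous genes had some of the largest differences. KRT14 stood at 47.4 CPM in the untreated labelled knockout (95% Poisson interval 44.5 to 50.4, counting error only) against 6557 CPM in untreated Cal27 (6523 to 6591). PKP1 stood at 1.51 CPM (1.03 to 2.13) against 645 CPM (634 to 656). SPRR1B had 2 reads against 2590, which is 1263-fold lower with a counting interval of 349 to 10432. All 6 keratins and all 4 surface, junction and cornification genes were past 2-fold lower, with median log2 differences of -4.89 and -7.21. The parental level itself was not the same in both sets of libraries. KRT14 was at 6557 CPM in untreated Cal27 and averaged 1282 ± 11.8 CPM (SD, n = 2) in Cal27 with DMSO, KRT13 at 212 and 6.38 ± 0.16 CPM, and SPRR1B at 119 and 7.53 ± 0.17 CPM. Over the 76 members the median ratio of untreated Cal27 to Cal27 with DMSO was 1.92, with a range of 0.491 to 33.3, and over the 10975 expressed genes it was 0.975. The cell markers differed too. The endothelial sum, mostly CDH5, was 90.1 CPM in the untreated labelled knockout and 5.47 CPM in untreated Cal27. The squamous sum, which includes the member KRT14, was 4603 and 20843 CPM in these libraries. Their part in the result was not tested.

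Outside the squamous genes, BMP7 had 1 read in the untreated labelled knockout against 1173 in untreated Cal27, or 1144-fold lower with a counting interval of 205 to 45213. ITGA4 had none against 280 and SCARA3 none against 181, so that they were at least 91.0-fold and 58.8-fold lower against a limit of 3 counts per library. With ITGA4 and SCARA3 at these bounds the median of the set was still -3.09. All 9 transcription and chromatin genes were past 2-fold lower, among them KLF13 with 7.78 CPM against 121 CPM and BCL11B with 0.283 CPM against 16.2 CPM. NUP210, PPP1R14C and SESN3 stood at 0.236, 0.236 and 0.802 CPM in the labelled knockout against 23.0, 25.5 and 41.6 CPM in Cal27. NUP210 stood at 22 to 23.0 CPM in Cal27 with DMSO and PPP1R14C at 19.1 to 19.8 CPM.

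Not every member was low without treatment. SIRPA stood at 19.1 CPM in the untreated labelled knockout against 18 CPM in untreated Cal27 (log2 -0.02), and its sign turned with library size alone as the scaling, which moved the median of all tested genes to 0.09. KLK5 stood at 65.3 CPM against 99.0 CPM, and its level in the labelled knockout with DMSO was 3.28 to 3.97 CPM. The others between no difference and 2-fold lower were MAOA, CNTN1, ZNF204P, UQCRFS1P1, CDK20, SDK1 and UCHL1. COBL was higher in the labelled knockout, with 37.0 CPM against 12.7 CPM (log2 1.42), where 5.7% of all tested genes were past 2-fold higher. ABCC4 (29.6 against 21.8 CPM) and MGMT (11.7 against 10.8 CPM) were slightly above Cal27.

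**Figure D4:**
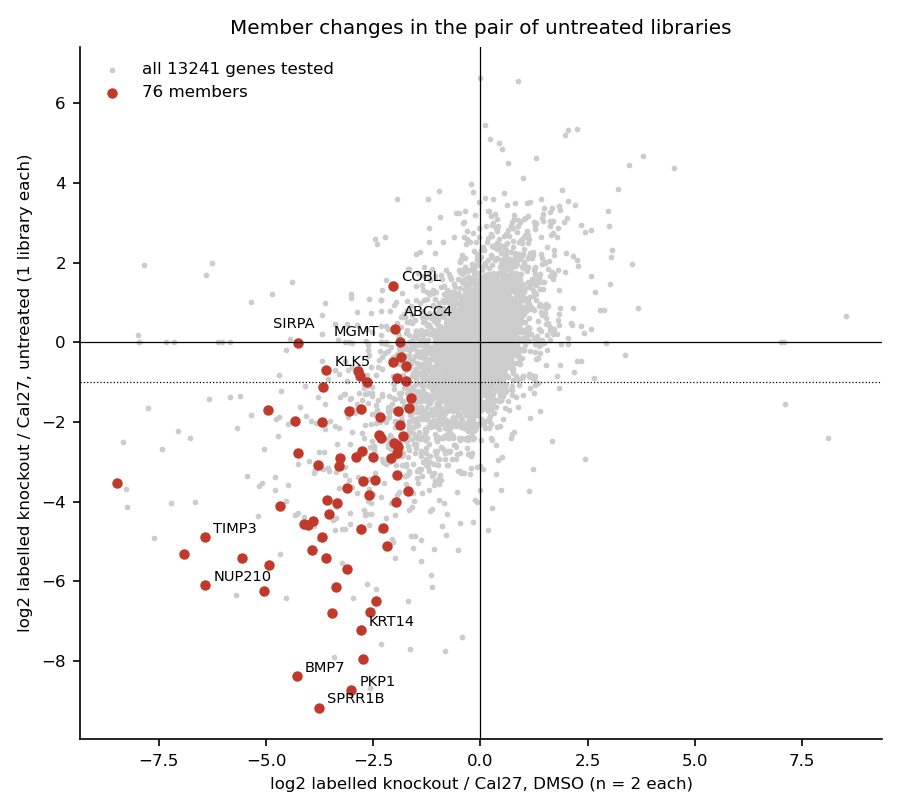
Log2 of the labelled knockout over Cal27 in the untreated libraries (vertical axis, 1 library each) against the same with DMSO (horizontal axis, 2 libraries each), for all 13241 tested genes in grey and the 76 members in red; the dotted line marks 2-fold lower. The horizontal position of members was set by the rule, and 64 of them lie below the dotted line.

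In the lines SKN3 and BICR78, NSD1 mRNA itself stood at 84.3 CPM in SKN3 and at 0.462 CPM in BICR78. Of the 76 members, 56 (73.7%) in SKN3 and 70 (92.1%) in BICR78 were at 1 CPM or more, beside 97.3% and 98.4% of the 10975 expressed genes. Among the 115 other lost genes the shares were 70.4% and 82.6%, so low shares are not particular to the members. The expressed genes were not matched to the members on level. CDK20, IRX1, SNRPN, TMPRSS11D and TSHZ3 were under 1 CPM in both lines. Above the level of untreated Cal27 in both were 21 members (27.6%), and 32.5% of the expressed genes were. NUP210 was among them, with 662 CPM in SKN3 and 147 CPM in BICR78 against 23.0 CPM in untreated Cal27, as were SESN3 with 318 and 126 against 41.6 CPM and KRT13 with 747 and 919 against 212 CPM. PKP1 reached 942 and 947 CPM against 645 CPM. Other members differed between the lines. TIMP3 stood at 0.0569 CPM in SKN3, under the limit of 0.171 CPM that 3 counts give, and at 12.9 CPM in BICR78. NTN1 stood at 209 and 9.18 CPM, and LY6D at 12.2 and 770 CPM.

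Several members lie next to each other. Chromosome 17 held 9 members (11.8%, beside 6.08% of the expressed genes) and chromosome 19 held 7 (9.21%, beside 6.36%). Chromosomes 16 and 18, with 4.74% and 1.41% of the expressed genes, held none, and nothing is read from that. Among the tested genes 4 pairs of members were adjacent. Of these, 3 were keratins on chromosome 17, KRT13 with KRT15, KRT14 with KRT16 and KRT16 with KRT17. The other was NDRG1 with ST3GAL1 on chromosome 8. The type I keratin members span chr17:41500981-41624575 (GRCh38.p14). Of 8 type I keratins tested, 7 were lower in the labelled knockout with DMSO than in Cal27, KRT23 being the exception (log2 -0.54 ± 1.02, SE). Of the 7, 5 are members, which the rule fixed as lower. KRT19, which lies between KRT15 and KRT14, had a low level of 0.963 ± 0.279 CPM with EPZ-6438, 0.223 ± 0.096 CPM with DMSO and 1.18 ± 0.16 CPM in Cal27 (SD, n = 2).

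The kallikrein genes of chromosome 19 were lower in a continuous run. KLK5, KLK6, KLK7, KLK8, KLK9 and KLK10, which follow one another at chr19:50943303-51020097, were all lower in both groups of the labelled knockout than in Cal27. In the labelled knockout with DMSO their log2 differences from Cal27 were between -2.51 and -3.69. KLK5, KLK8 and KLK10 are members, which the rule fixed as lower, and both ends of this range are theirs. KLK6, KLK7 and KLK9 missed the rule with 2.47, 2.83 and 2.18 CPM in Cal27. The nearest tested genes, KLK4 on one side (log2 0.07 ± 0.20) and KLK14 on the other (0.27 ± 0.53), were not called. The untreated pair did not show the run evenly, with KLK8 at 11.8 CPM in the labelled knockout against 44.3 CPM in Cal27 and KLK5 at 65.3 CPM against 99.0 CPM. It did not show the ends of the run either. In that pair KLK4 stood at 2.55 CPM against 6.99 CPM and KLK14 at 0.660 CPM against 1.61 CPM. KLK11, next to KLK10 and not tested, stood at 0.0944 CPM, under the limit of 0.142 CPM that 3 counts give, against 7.91 CPM.

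**Figure D5:**
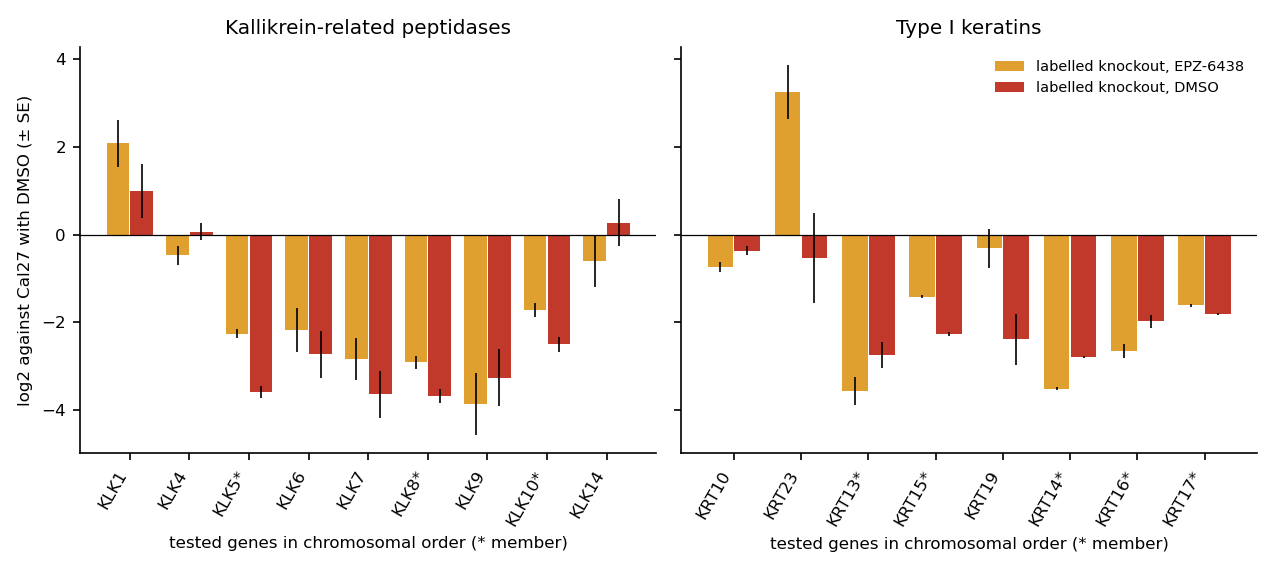
Log2 difference from Cal27 with DMSO of the tested kallikrein-related peptidases (chromosome 19) and type I keratins (chromosome 17) in chromosomal order, for the labelled knockout with EPZ-6438 and with DMSO (edgeR, bars ± SE); an asterisk marks members. KLK5 to KLK10 and KRT13 to KRT17 are below 0, KRT19 with EPZ-6438 within its error, and KLK4 and KLK14 were not called in either comparison.

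Over all members, 141 genes that are no members were the nearest such tested gene before or after a member. Untested genes can lie between. Of these, 20 (14.2%) were at least 2-fold lower in the labelled knockout with DMSO than in Cal27, beside 6.30% of all tested genes, and the median was -0.06. Among the 20 were KRT5, KRT6C, SPRR1A, MMP12, NEFM, COL6A1 and 3 kallikreins, chosen for mention after their values were seen. SPRR1A stood at 0.170 and 0.387 CPM with EPZ-6438, 0.311 and 0.437 CPM with DMSO and 2.71 and 1.73 CPM in Cal27. It is a close copy of SPRR1B, so the division of reads between them is uncertain. Neighbours of members thus include relatives of the same families, and no test of position was made. Overlap with another gene affects 5 members: ZNF204P with ZNF391, HOMER2 with WHAMM, KIF7 with TICRR, SCARA3 with CCDC25 and FARP1 with STK24. In each case the other gene had at least 10% of the member's level, and the strand setting of the counts is not given in the sources used here, so their reads may not be separable.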

How the data were processed

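Per the labels' protocols, total RNA was extracted in TRIzol and libraries were made after depletion of ribosomal RNA. The values analysed are the authors' unnormalized counts per gene, taken as deposited. Per the submitters' processing notes the build was hg38 and the tools included HISAT2 2.1.0, CASAVA 1.7, Picard 2.23.1 and featureCounts 1.6.1. The 7 CUT&Tag samples were not analysed here.

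CPM is the count over the column total, times 1e6. The 6 libraries with DMSO or EPZ-6438 entered 1 fit in edgeR 4.0.16 under R 4.3.3, with TMM scaling, the default low-count filter, group as the only term and the quasi-likelihood test, with Benjamini-Hochberg adjustment over 13241 genes and a threshold of 0.05. The procedure was tested on simulated data. Untreated libraries were compared as log2 CPM with TMM over 10 libraries and a prior count of 2, with no test. Single-library intervals are exact 95% Poisson intervals and, like the limit of 3 counts, cover counting error only. Gene positions and promoters came from RefSeq, GRCh38.p14.

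The members and the gene lists were chosen with earlier results of these data known. A naming rule (levels, ratios, lists, largest and smallest changes, genes at the limits) took 49 members. The other 27, among them BCL11B, DMRT2 and SYNGR1, and the role groups were named after their values were seen. Alternatives were DESeq2 1.42.0, other scalings and filters, a replicate block, glmTreat, other limits of the rule and leaving out each library. The single values of 1 member, which is counted throughout, are not reported here.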

Additional observations from a re-analysis of the deposited data

Results flagged for a closer look

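In 3 members the untreated log2 difference was above 0, while with DMSO the labelled knockout was lower. With library size alone as the scaling there were 4, SIRPA (log2 -0.02 with TMM) being added. The difference between the 2 sets of libraries was not tested. COBL was higher in the untreated labelled knockout (37.0 CPM, 95% Poisson interval 34.4 to 39.7) than in untreated Cal27 (12.7 CPM, 11.3 to 14.3), a log2 difference of 1.42, while with DMSO it averaged 3.42 ± 0.32 CPM in the labelled knockout and 13.7 ± 0.58 CPM in Cal27 (SD, n = 2 each). ABCC4 had an untreated log2 difference of 0.34, with 29.6 CPM in the labelled knockout and 21.8 CPM in Cal27, while with DMSO it averaged 3.8 ± 3.17 CPM in the labelled knockout and 14.8 ± 14.0 CPM in Cal27 (SD, n = 2 each). MGMT had an untreated log2 difference of 0.0095, with 11.7 CPM in the labelled knockout (10.3 to 13.2) and 10.8 CPM in Cal27 (9.47 to 12.3), intervals that overlap. With DMSO it averaged 2.95 ± 0.78 CPM in the labelled knockout and 10.4 ± 0.71 CPM in Cal27 (SD, n = 2 each).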

How the results depend on the processing

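The number of members moved with the limits of the rule. It was 32 with a level limit of 10 CPM in Cal27, 133 with 1 CPM, and 49 with a limit of 1/3 for EPZ-6438, while leaving out 1 library gave 73 to 78. TMM-scaled CPM gave 84, DESeq2-type size factors 83, and 52 met the limits in every library. Leaving out 1 library left 75 to 76 members lower than Cal27 in the labelled knockout with EPZ-6438 and 75 to 76 with DMSO. For EPZ-6438 over DMSO in the labelled knockout it gave 30 to 42 calls, 28 to 39 of them higher and 1 to 4 lower, with 1 lower without labelled knockout DMSO replicate 1. Testing against a log2 fold of 0.5 (glmTreat) gave 19 calls, 18 higher and 1 lower. No low-count filter gave 5 lower. DESeq2 made 33 calls there, 30 higher and 3 lower.

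Same-numbered replicates did not deviate together (correlations of 0.014, -0.044 and 0.0035), so the values gave no sign of pairing by number. With 2 libraries a group, this cannot exclude a pairing. With the replicate block the calls were 76 with EPZ-6438 and 76 with DMSO against Cal27, and 43 for EPZ-6438 over DMSO, 40 higher and 3 lower. In the untreated pair, library size alone gave 63 members past 2-fold lower and a prior count of 0.5 gave 64. Low counts limit the members near 3 CPM, where few reads in the labelled knockout decide a ratio.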
